A study of Homo sapiens with 16 samples.

Results

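A set of 47 interferon-stimulated genes was followed through every library of the series. Its members are defined by a list of symbols, and all 47 were found among the 23228 gene rows of the deposited files. In 46 of them there were enough reads to test. The nucleotide kinase gene CMPK2 was the exception, with 0 to 6 reads per library. Of the 46, 43 lay above the level of the expression filter (0.491 CPM, or 10 reads at the median depth) in all 16 libraries, and IFI44L, OAS1 and RSAD2 fell below it in some.

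Interferons are secreted proteins that cells release on sensing viral or misplaced nucleic acid. They bind surface receptors whose Janus kinases activate signalling factors, and a complex that includes STAT2 and IRF9 then switches on interferon-stimulated genes through a DNA element called the ISRE. The gene products sense RNA, degrade it, block its translation, conjugate the ubiquitin-like protein ISG15, or act as transcription factors for more of the same genes. Many tumour cells keep a part of this program active without added interferon.

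RNA came from MDA-MB-231, an established human breast cancer line without oestrogen receptor, as sub-confluent cultures in serum-containing medium. The groups were the solvent DMSO, methyl methanesulfonate (MMS), which alkylates DNA, sorafenib (an inhibitor of several kinases) at 1 µM, and sorafenib for 12 h followed by MMS, here called the combination, each harvested at 8 h and 24 h. For the combination the clock started at MMS, so its cells had been on sorafenib 12 h longer than cells given sorafenib alone. For MMS the series text states 40 µg/mL and the sample labels state 40 µM. None of the 8 groups received interferon, as far as the labels say, and all share 1 line and 1 medium. Each group held 2 libraries, from 2 independent experiments.

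Gene-assigned reads ranged from 16774156 to 26448212 per library (median 20348720). Levels are given as CPM, the share of a library's gene reads after TMM scaling, for replicate 1 and then replicate 2 of a group. Changes are log2 differences between group means ± SE from edgeR's quasi-likelihood test, n = 2 libraries per group, and a gene is said to rise or fall where its p, adjusted by Benjamini-Hochberg over 13948 genes, is under 0.05. Replicate 1 and replicate 2 carry differently spelled sample titles in every group, and same-numbered libraries deviated together, so counts from a fit with the replicate as a block are given beside the main ones. Of the markers of other cell types, MS4A1 and CLEC4C had 0 reads in all 16 libraries, PTPRC had 2 to 32 reads per library, CD14 17 to 246 and CD68 1574 to 3306, and the rest had at most 7. Of 10 line markers, vimentin (VIM) stood at 1424 to 2488 CPM, CD44 at 610 to 1174 CPM and EGFR at 231 to 509 CPM. ESR1, the oestrogen receptor gene, had no more than 5 reads per library and PGR 3 to 15. KRT18 stood at 154 to 270 CPM, KRT19 at 91.2 to 300 CPM, ERBB2 at 59.7 to 99.8 CPM and EPCAM at 9.20 to 18.5 CPM. CDH1 had 5 to 220 reads per library. In bulk RNA, fewer cells with a transcript and less transcript per cell cannot be told apart.

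The comparison of MMS with DMSO asked what the alkylating agent did by itself, and at 24 h it lowered a large part of the set. Of the 46 tested members 18 fell and 0 rose, while 16.3% of all tested genes fell and 15.2% rose. The median over the tested members was -0.35 on the log2 scale, beside 0.0033 over all genes. The largest falls were in the antiviral effectors OASL (-2.41 ± 0.28), MX2 (-2.30 ± 0.28), OAS1 (-2.15 ± 0.62), IFIT1 (-1.96 ± 0.37) and IFIT2 (-1.60 ± 0.14). Falls were also seen for the RNA helicases DDX60, DDX58 and IFIH1, the factor IRF1, and XAF1, SAMD9L, EPSTI1, IFIT3, IFI44, IFI35, LGALS3BP, UBE2L6 and IFITM2. The call held whichever 1 of the 4 libraries was left out for 9 of the 18, namely IRF1, DDX58, DDX60, OASL, MX2, IFIT1, IFIT2, IFIT3 and LGALS3BP. Without replicate 1 of MMS the 9 were all that passed. With the replicate as a block 27 fell and 1 rose, against 25.2% of all genes lower and 23% higher in that fit.

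At 8 h the MMS response was smaller and went both ways. Of the members, 7 fell and 2 rose, where 12% of all genes fell and 14.5% rose, and the members' median was -0.20. IRF1, DDX58, IFIT2, IFIT3, IFITM2, XAF1 and PARP9 fell, and the ubiquitin ligases TRIM21 and DTX3L rose. Only 4 of these 9 calls held with each of the 4 libraries left out in turn: IRF1, DDX58, IFIT3 and TRIM21. Without replicate 2 of MMS 5 passed. With the block 15 fell and 5 rose, against 20.9% and 22.4% of all genes.

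**Figure D1:**
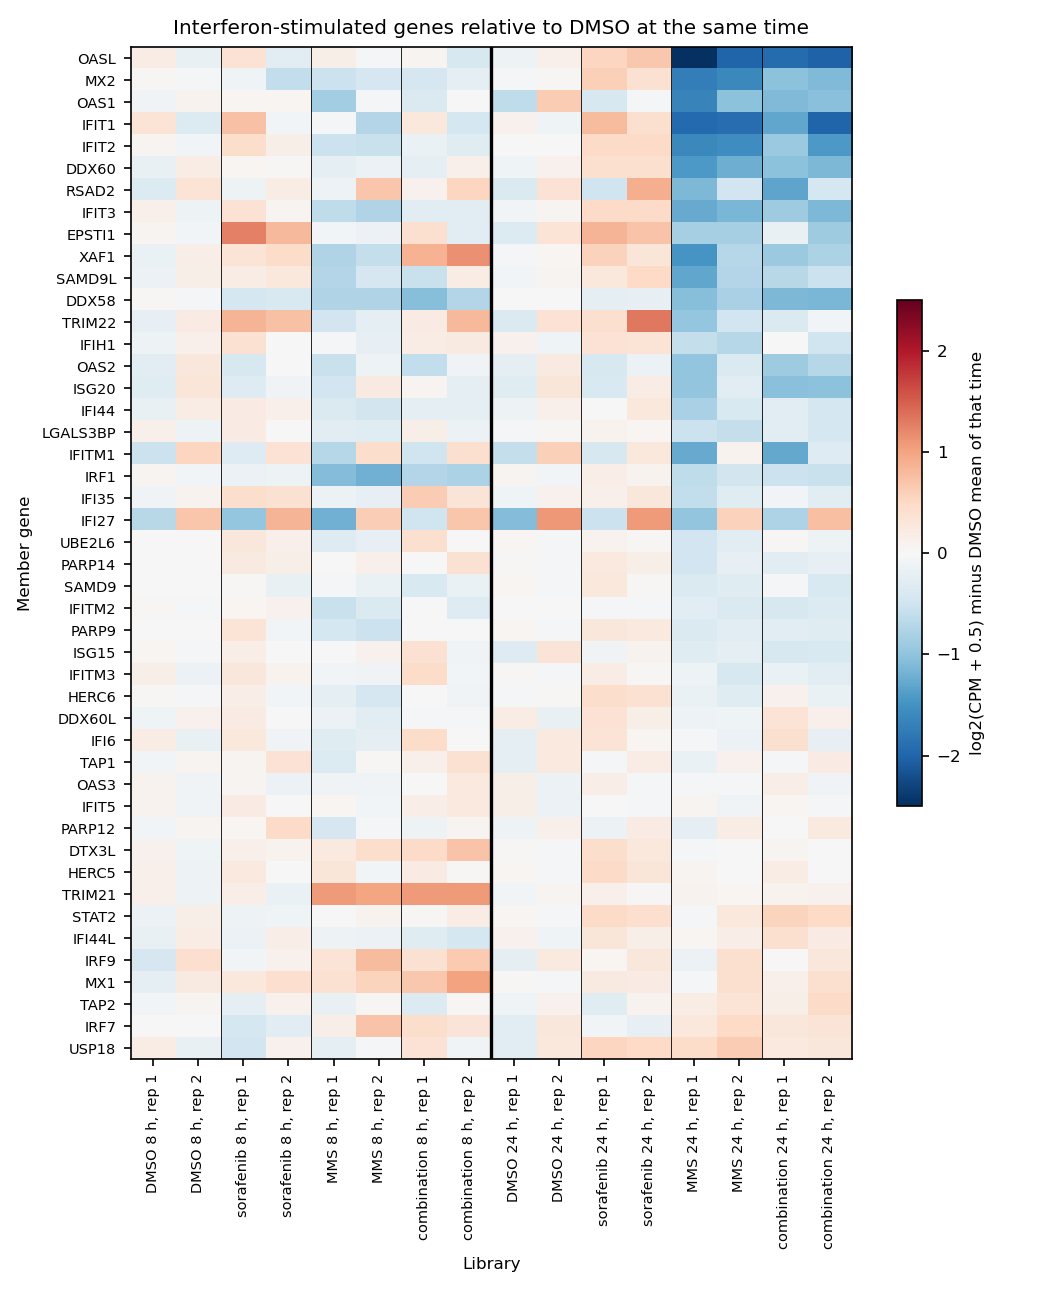
Each column is 1 library, each row a tested member, and the colour is log2(CPM + 0.5) minus the mean of the DMSO libraries of that time, with rows ordered by the MMS change at 24 h. The top rows, from OASL to SAMD9L, are blue in both MMS and both combination libraries at 24 h, TRIM21 is red in the MMS and combination libraries at 8 h, and the rows of IFI27 and IFITM1 alternate between replicates.

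Among the transcription factors, IRF1, an early-induced activator that binds related elements, gave the clearest early change. Its level was 41.8 and 37.8 CPM in DMSO at 8 h, 18.6 and 17.0 CPM in MMS, 35.8 and 36.5 CPM in sorafenib and 23.8 and 22.7 CPM in the combination. The MMS groups lay below both others without overlap. The MMS change was -1.16 ± 0.10 (edgeR adjusted p = 8.56e-06). At 24 h the levels were 41.6 and 37.8 CPM in DMSO, 25.3 and 28.9 CPM in MMS, 44.4 and 42.3 CPM in sorafenib and 27.4 and 26.7 CPM in the combination. The fall was then -0.55 ± 0.10 (edgeR adjusted p = 0.0014). IRF1 was thus lowest at 8 h, and the difference between the times was 0.61 ± 0.14 (edgeR adjusted p = 0.0182), with an adjusted p of up to 0.0737 when replicate 1 of DMSO at 8 h, replicate 2 of DMSO at 24 h or replicate 2 of MMS at either time was left out.

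Near the start of IRF1 the RefSeq promoter table (GRCh38.p14) holds a match to TTCNNNGAA, the letters of the GAS element, a second class of interferon-responsive element. It is printed because IRF1 had the largest fall of the called members at 8 h and no match to the ISRE letters in its window, and it was chosen after the values of IRF1 were seen. The stretch lies upstream of the start on the minus strand at chr5:132490863-132490922, with the match in capitals.

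IRF1: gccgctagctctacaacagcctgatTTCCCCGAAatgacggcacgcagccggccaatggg

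STAT2 and IRF9, partners in the complex that binds the ISRE, did not pass the test with MMS. STAT2 stood at 46.6 and 43.0 CPM in DMSO at 24 h, 43.5 and 53.8 CPM in MMS, 62.5 and 59.9 CPM in sorafenib and 66.3 and 63.4 CPM in the combination. Both sorafenib-containing groups were above both DMSO libraries, and MMS overlapped DMSO. The MMS change was 0.12 ± 0.12 (edgeR adjusted p = 0.464). IRF9, the DNA-binding subunit, stood at 13.4 and 19.1 CPM in DMSO and 14.5 and 21.5 CPM in MMS at 24 h. Its replicates differed more than its groups, and the second replicate was the higher one in all 8 groups. For IRF7, a factor that drives later interferon production, DMSO gave 13.4 and 13.1 CPM at 8 h and MMS 14.7 and 22.2 CPM. MMS was the higher group at 8 h, by 0.47 ± 0.21, without passing the test (edgeR adjusted p = 0.118).

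The cytosolic RNA sensors fell with MMS. DDX58, which encodes the sensor RIG-I, had 144 and 138 CPM in DMSO at 8 h, 83.7 and 83.3 CPM in MMS, 104 and 109 CPM in sorafenib and 66.7 and 84.9 CPM in the combination. DMSO lay above all 3 treated groups. At 24 h it had 150 and 153 CPM in DMSO, 72.0 and 86.7 CPM in MMS, 129 and 131 CPM in sorafenib and 69.0 and 68.7 CPM in the combination. With MMS it changed by -0.75 ± 0.11 at 8 h and -0.93 ± 0.11 at 24 h (edgeR adjusted p = 0.000298 and 0.000114). IFIH1, which encodes the long double-stranded RNA sensor MDA5, had 16.7 and 14.5 CPM in DMSO at 24 h, 10.0 and 9.34 CPM in MMS and 20.1 and 19.9 CPM in sorafenib. MMS was below DMSO and DMSO below sorafenib, with no overlap. The MMS fall was -0.68 ± 0.18 (edgeR adjusted p = 0.013), and 0.0865 at most with 1 library left out, crossing the threshold without either MMS library or replicate 1 of DMSO.

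DDX60, a helicase linked to RNA sensing, fell as well. In DMSO at 24 h DDX60 had 20.1 and 23.5 CPM, in MMS 7.72 and 9.10 CPM, in sorafenib 28.9 and 29.0 CPM and in the combination 10.4 and 9.77 CPM. The MMS groups lay well below the others and sorafenib above DMSO. Its MMS change was -1.37 ± 0.16 (edgeR adjusted p = 0.000122). Its neighbour DDX60L changed by -0.13 ± 0.14 at the same time and did not pass the test. At 8 h DDX60 had 18.2 and 23.6 CPM in DMSO and 17.7 and 18.8 CPM in MMS, ranges that overlap.

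The IFIT proteins bind viral RNA with foreign 5' ends and stop its translation. IFIT2 had 85.2 and 78.0 CPM in DMSO at 8 h, 56.2 and 55.1 CPM in MMS and 110 and 90.5 CPM in sorafenib. At 24 h it had 85.1 and 86.0 CPM in DMSO, 27.8 and 28.7 CPM in MMS, 120 and 119 CPM in sorafenib and 44.6 and 31.5 CPM in the combination. At both times the order was MMS, then DMSO, then sorafenib, without overlap. The MMS change was -0.55 ± 0.14 at 8 h (edgeR adjusted p = 0.0108) and -1.60 ± 0.14 at 24 h (edgeR adjusted p = 2.53e-05). The 8 h call was lost without replicate 1 of DMSO or either MMS library (adjusted p up to 0.0724).

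IFIT3, the partner that stabilises IFIT1, followed the same order. It had 147 and 122 CPM in DMSO at 8 h, 86.3 and 79.3 CPM in MMS and 173 and 140 CPM in sorafenib. Sorafenib overlapped DMSO there, and MMS was below both. At 24 h it had 132 and 145 CPM in DMSO, 57.4 and 62.8 CPM in MMS, 193 and 193 CPM in sorafenib and 74.4 and 63.5 CPM in the combination. The 24 h groups did not overlap, although MMS and the combination lay close together. IFIT3 changed with MMS by -0.70 ± 0.12 and -1.21 ± 0.12 at the 2 times (edgeR adjusted p = 0.00115 and 5.22e-05).

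IFIT1, which recognises uncapped or unmethylated 5' ends, differed between replicates within every group at 8 h. There it had 78.6 and 48.9 CPM in DMSO, 60.3 and 37.1 CPM in MMS and 103 and 58.7 CPM in sorafenib. At 24 h it had 79.6 and 67.7 CPM in DMSO, 18.8 and 19.2 CPM in MMS, 128 and 96.6 CPM in sorafenib and 29.5 and 18.1 CPM in the combination. The MMS fall at 24 h passed the test (edgeR adjusted p = 0.00194) and the overlapping values at 8 h did not. IFIT5, its neighbour on chromosome 10, moved by -0.02 ± 0.11 at 24 h.

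**Figure D2:**
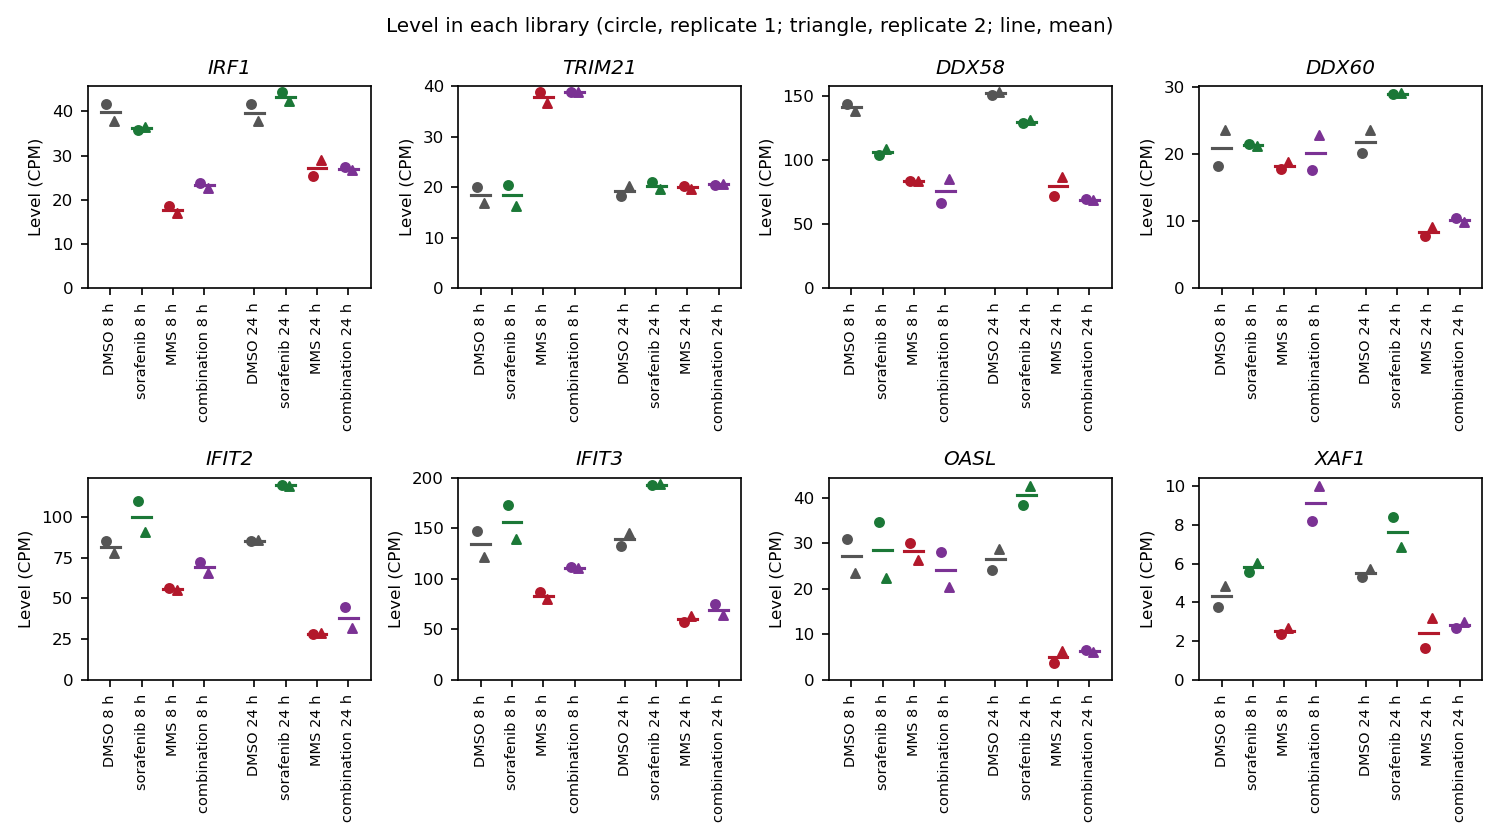
Level in CPM on the vertical axis against group, for 8 members, with circles for replicate 1, triangles for replicate 2 and a line at the mean. IFIT2, IFIT3, OASL and DDX60 are lowest in MMS and the combination at 24 h, IRF1 is lowest in MMS at 8 h, and TRIM21 is highest in MMS and the combination at 8 h.

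The ISRE letters, GAAA followed by any 2 bases and GAAA, were searched on both strands from 250 bases before to 50 after each RefSeq start. They were present for 28 of the 39 members with a promoter in the table, or 71.8%. They occurred for 4.38% of 27305 genes in the same table. GAS letters, TTCNNNGAA, occurred for 11 of 39 members (28.2%) and 9.38% of genes, and the 2 motifs can overlap. A match describes letters and no binding was measured. Stretches of 60 bases are printed for 6 members that the report describes, those with the smallest p and a match upstream of the start, each read 5' to 3' on the gene's strand in GRCh38.p14 with the match in capitals. On that strand a match reads as above or as its reverse complement, TTTC followed by any 2 bases and TTTC.

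IFIT3 (plus strand, chr10:89327850-89327909): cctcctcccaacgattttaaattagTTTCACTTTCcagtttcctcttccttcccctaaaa
IFIT1 (plus strand, chr10:89392495-89392554): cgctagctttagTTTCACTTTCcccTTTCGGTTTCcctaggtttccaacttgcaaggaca
DDX60 (minus strand, chr4:168318771-168318830): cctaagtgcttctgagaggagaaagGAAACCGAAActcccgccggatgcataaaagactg
IFIH1 (minus strand, chr2:162318685-162318744): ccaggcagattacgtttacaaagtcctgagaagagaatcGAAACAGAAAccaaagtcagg
LGALS3BP (minus strand, chr17:78979947-78980006): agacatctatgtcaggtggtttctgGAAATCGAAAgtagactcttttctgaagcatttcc
PARP9 (minus strand, chr3:122564307-122564366): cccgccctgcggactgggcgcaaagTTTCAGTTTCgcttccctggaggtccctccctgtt

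Falls occurred with and without these letters. At 24 h of MMS 7 of the 28 members with the ISRE letters fell, with a median change of -0.31, and 7 of the 10 tested members without them fell, with a median of -0.51. Over all tested genes 16.3% fell. Members with and without the letters are few and were not compared by a test. All 6 genes printed fell with MMS in at least 1 of the times. They were picked by small p, mostly from comparisons that include MMS, so their falls say nothing about the letters. TRIM21, which rose, also has the letters, after its start.

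In the OAS family, whose members make or resemble the 2'-5' oligoadenylate synthetases that activate RNase L, 2 of the 4 fell with MMS at 24 h. OASL, a synthetase-like protein without that enzyme activity that aids RIG-I, had 24.1 and 28.9 CPM in DMSO at 24 h, 3.58 and 6.21 CPM in MMS, 38.6 and 42.6 CPM in sorafenib and 6.57 and 6.16 CPM in the combination. The MMS-containing groups were the lowest and sorafenib the highest, without overlap with DMSO. OASL changed with MMS by -2.41 ± 0.28 (edgeR adjusted p = 0.000105). At 8 h OASL had 31.0 and 23.6 CPM in DMSO and 30.1 and 26.4 CPM in MMS, which overlap. OAS1 was near the detection limit, between 0.227 and 3.11 CPM, and its 24 h call was lost without replicate 1 of MMS or replicate 2 of DMSO (adjusted p up to 0.252). OAS3 changed by -0.05 ± 0.13 at 24 h. OAS2 changed by -0.67 ± 0.27, a fall only in the fit with the replicate block (adjusted p = 3.3e-05 there and 0.0824 without it).

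Of the MX GTPases, which trap viral capsids and ribonucleoproteins, 1 of 2 fell at 24 h. MX2 had 2.95 and 3.11 CPM in DMSO at 24 h, 0.568 and 0.650 CPM in MMS, 4.81 and 4.10 CPM in sorafenib and 1.24 and 1.13 CPM in the combination. These low levels still separated all 4 groups. MX2 fell by 2.30 on the log2 scale (edgeR adjusted p = 0.000137). MX1, from the adjacent gene, had 21.3 and 20.7 CPM in DMSO, 20.4 and 27.7 CPM in MMS, 24.6 and 24.3 CPM in sorafenib and 23.0 and 28.0 CPM in the combination. Its MMS change of 0.20 ± 0.18 did not pass the test.

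Among the ISG15-conjugation genes and TRIM ligases, TRIM21, a ligase that binds antibody in the cytosol and marks immune factors, went up. It had 19.95 and 16.80 CPM in DMSO at 8 h, 38.9 and 36.7 CPM in MMS, 20.5 and 16.3 CPM in sorafenib and 38.8 and 38.9 CPM in the combination. MMS was 2.06-fold and the combination 2.12-fold above DMSO. TRIM21 changed with MMS by 1.04 ± 0.12 (edgeR adjusted p = 8.14e-05). By 24 h DMSO had 18.2 and 20.2 CPM and MMS 20.3 and 19.7 CPM, which overlap, and the 24 h effect minus the 8 h effect was -0.98 ± 0.17 (edgeR adjusted p = 0.00553). ISG15 itself had 63.7 and 98.6 CPM in DMSO at 24 h and 64.5 and 67.9 CPM in MMS. Its DMSO replicates spanned both MMS values, with a change of -0.29 ± 0.18. UBE2L6, the ISG15-conjugating enzyme, fell by 0.37 on the log2 scale at 24 h (edgeR adjusted p = 0.0397), a call lost with any of the 4 libraries left out (adjusted p up to 0.332).

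TRIM22, a ligase with antiviral activity, was low and spread widely. At 24 h it had 2.84 and 5.08 CPM in DMSO, 1.70 and 2.60 CPM in MMS, 5.23 and 10.2 CPM in sorafenib and 2.88 and 3.60 CPM in the combination. MMS was below DMSO and sorafenib above it, but neither passed the test. HERC6, of the HERC ligase pair, had 21.4 and 22.5 CPM in DMSO at 24 h, 19.5 and 17.6 CPM in MMS and 29.9 and 28.7 CPM in sorafenib. Its ranges did not overlap either, and only the distance from MMS to sorafenib, 0.66 ± 0.13, passed the test (edgeR adjusted p = 0.00176).

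PARP9 and DTX3L form an ADP-ribosylating ubiquitin ligase complex and are transcribed away from each other. The ISRE match printed above for PARP9 begins 41 bases before the PARP9 start and 6 bases before the DTX3L start. PARP9 had 12.5 and 12.3 CPM in DMSO at 8 h and 8.99 and 8.45 CPM in MMS. DTX3L had 51.8 and 45.0 CPM in DMSO at 8 h and 57.5 and 65.3 CPM in MMS. The pair moved apart, PARP9 by -0.51 ± 0.14 and DTX3L by 0.34 ± 0.11 (edgeR adjusted p = 0.0171 and 0.0308). Leaving out any of the 4 libraries ended the PARP9 call (adjusted p up to 0.0951), and leaving out replicate 2 of DMSO or MMS ended the DTX3L call (adjusted p up to 0.266). The strand setting of the counting is not given in the sources used here, so reads near a shared start could not be assigned with certainty. PARP14, a mono-ADP-ribosyltransferase, had 76.2 and 73.9 CPM in DMSO at 24 h, 53.7 and 65.1 CPM in MMS and 89.5 and 82.8 CPM in sorafenib, an order without overlap in which only sorafenib against MMS passed the test (0.54 ± 0.12).

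XAF1, a pro-apoptotic antagonist of the inhibitor XIAP, had 3.76 and 4.86 CPM in DMSO at 8 h, 2.34 and 2.65 CPM in MMS, 5.59 and 6.05 CPM in sorafenib and 8.19 and 10.0 CPM in the combination. At 24 h it had 5.30 and 5.70 CPM in DMSO, 1.65 and 3.17 CPM in MMS, 8.40 and 6.87 CPM in sorafenib and 2.66 and 2.98 CPM in the combination. The combination was thus the highest group at 8 h and among the lowest at 24 h. XAF1 changed with MMS by -0.80 ± 0.27 at 8 h (edgeR adjusted p = 0.0445) and -1.17 ± 0.27 at 24 h (edgeR adjusted p = 0.00604). The 8 h call was lost with any 1 of the 4 libraries left out (adjusted p up to 0.251), and the 24 h call without replicate 1 of MMS (0.0548).

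SAMD9L, a growth and translation inhibitor, had 26.0 and 28.8 CPM in DMSO at 24 h, 10.8 and 16.3 CPM in MMS, 33.1 and 38.7 CPM in sorafenib and 16.7 and 18.8 CPM in the combination. It was lower in both MMS-containing groups. The fall of 1.01 on the log2 scale had an adjusted p of 0.00786, and 0.0831 without replicate 1 of MMS. SAMD9 beside it changed by -0.33 ± 0.13 without passing the test. LGALS3BP, a secreted glycoprotein with the highest mean read count of the members, had 535 and 555 CPM in DMSO at 24 h, 374 and 362 CPM in MMS, 576 and 562 CPM in sorafenib and 449 and 400 CPM in the combination. Its fall of 0.57 on the log2 scale was modest and held with each library left out (edgeR adjusted p = 0.00266).

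IFI44, of unsettled antiviral function, had 23.6 and 27.8 CPM in DMSO at 24 h, 14.3 and 19.6 CPM in MMS and 26.0 and 30.9 CPM in sorafenib. IFI35, which binds other interferon-induced factors, had 16.8 and 19.5 CPM in DMSO, 11.7 and 14.6 CPM in MMS and 19.92 and 22.05 CPM in sorafenib. IFITM2, a membrane protein that blocks viral fusion, had 37.5 and 37.6 CPM in DMSO, 31.1 and 29.0 CPM in MMS and 36.4 and 36.7 CPM in sorafenib. MMS was below DMSO for all 3, with changes of -0.60 ± 0.17, -0.46 ± 0.15 and -0.32 ± 0.11. The IFI44 and IFI35 calls were lost without replicate 1 of MMS or replicate 2 of DMSO (adjusted p up to 0.179 and 0.29), and the IFITM2 call with any of the 4 libraries left out (up to 0.236). EPSTI1, at 0.796 to 4.13 CPM over the libraries, fell by 1.20 on the log2 scale at 24 h, a call lost without either MMS library or replicate 2 of DMSO (up to 0.346). Of the 47 members 19 passed the test in none of the MMS, sorafenib and sorafenib-against-MMS comparisons, counting CMPK2, which was not tested. The share of all genes that passed in none of them was not counted. Among the 19 were both subunits of the peptide transporter, TAP1 and TAP2, and IFIT5, MX1, OAS2, OAS3, ISG15, IRF9 and IFITM3.

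The difference between the MMS effects at 24 h and 8 h was tested directly, where 5.6% of all genes were lower and 3.53% higher at 24 h. Among the members 5 were lower and 1 higher, and with the block 9 lower and 2 higher, against 14.6% and 11% of all genes. OASL (-2.47 ± 0.37), MX2 (-1.69 ± 0.38), DDX60 (-1.17 ± 0.22), IFIT2 (-1.05 ± 0.20) and TRIM21 (-0.98 ± 0.17) had a lower MMS effect at 24 h, and IRF1 a higher one. TRIM21 had risen at 8 h, and the other 4 had their larger fall at 24 h. The MX2 call was lost without 5 of the 8 libraries (adjusted p up to 0.0794), all but replicate 1 of DMSO at 24 h, replicate 1 of MMS at 8 h and replicate 2 of MMS at 24 h, and those of OASL, DDX60, IFIT2 and TRIM21 held throughout. In DMSO alone, 24 h against 8 h, 0 of 46 members passed edgeR's test, where 0.66% of all genes did, with 7 members at an unadjusted p under 0.05 (16.2% of all genes), 2 called by DESeq2 (4.48% of its genes) and 8 with the block (13.6% of all genes).

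Sorafenib by itself gave mostly small positive changes, and none passed the test within a time. The number of members past the test was 0 at 8 h and 0 at 24 h, where 0.394% and 0.817% of all genes passed. At an unadjusted p under 0.05 there were 5 and 11 members, against 7.6% and 9.03% of all genes. DESeq2 called 1 and 3, against 1.29% and 2.3% of the genes it tested. The median over the tested members was 0.09 at 8 h and 0.20 at 24 h, and the change was above 0 for 31 and 36 of the 46, beside all-gene medians of 0.0043 and -0.0042.

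With the replicate block 9 members rose and 0 fell at 24 h, against 3.37% of all genes that rose and 3.81% that fell in that fit. They were STAT2 (0.45), the RNA-binding IFIT1 (0.59), IFIT2 (0.48) and IFIT3 (0.47), the helicase DDX60 (0.41), the ligases HERC5 (0.39), HERC6 (0.41), DTX3L (0.36) and TRIM22 (0.94). Each of the 9 had both sorafenib libraries above both DMSO libraries. The 9 were picked by calls on these same libraries, so this adds no support, and the share over all genes was not counted. Their adjusted p ran from 0.00385 for IFIT3 to 0.0359 for DDX60 with the block, and from 0.115 for IFIT3 to 0.702 for IFIT1 without it. At 8 h the blocked fit called TRIM22 and EPSTI1 higher and DDX58 lower, against 5.03% of all genes in either direction.

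Averaged over both times, sorafenib raised 1 member, IFIT3 (0.35 ± 0.09, edgeR adjusted p = 0.0496), and lowered 1, DDX58 (-0.32 ± 0.08, edgeR adjusted p = 0.0447). All-gene shares were 1.3% higher and 1.87% lower. Both calls were lost in most fits with 1 library left out, DDX58 without any of the 8 (adjusted p up to 0.185) and IFIT3 without all but replicate 1 of DMSO at 8 h and replicate 2 of sorafenib at 8 h (up to 0.238). With the block 12 rose and 2 fell, against 6.24% of all genes higher and 6.22% lower. For the sorafenib effect at 24 h minus that at 8 h 0% of all genes and 0 members passed edgeR's test, with 2 members at an unadjusted p under 0.05, against 1.08% of all genes.

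**Figure D3:**
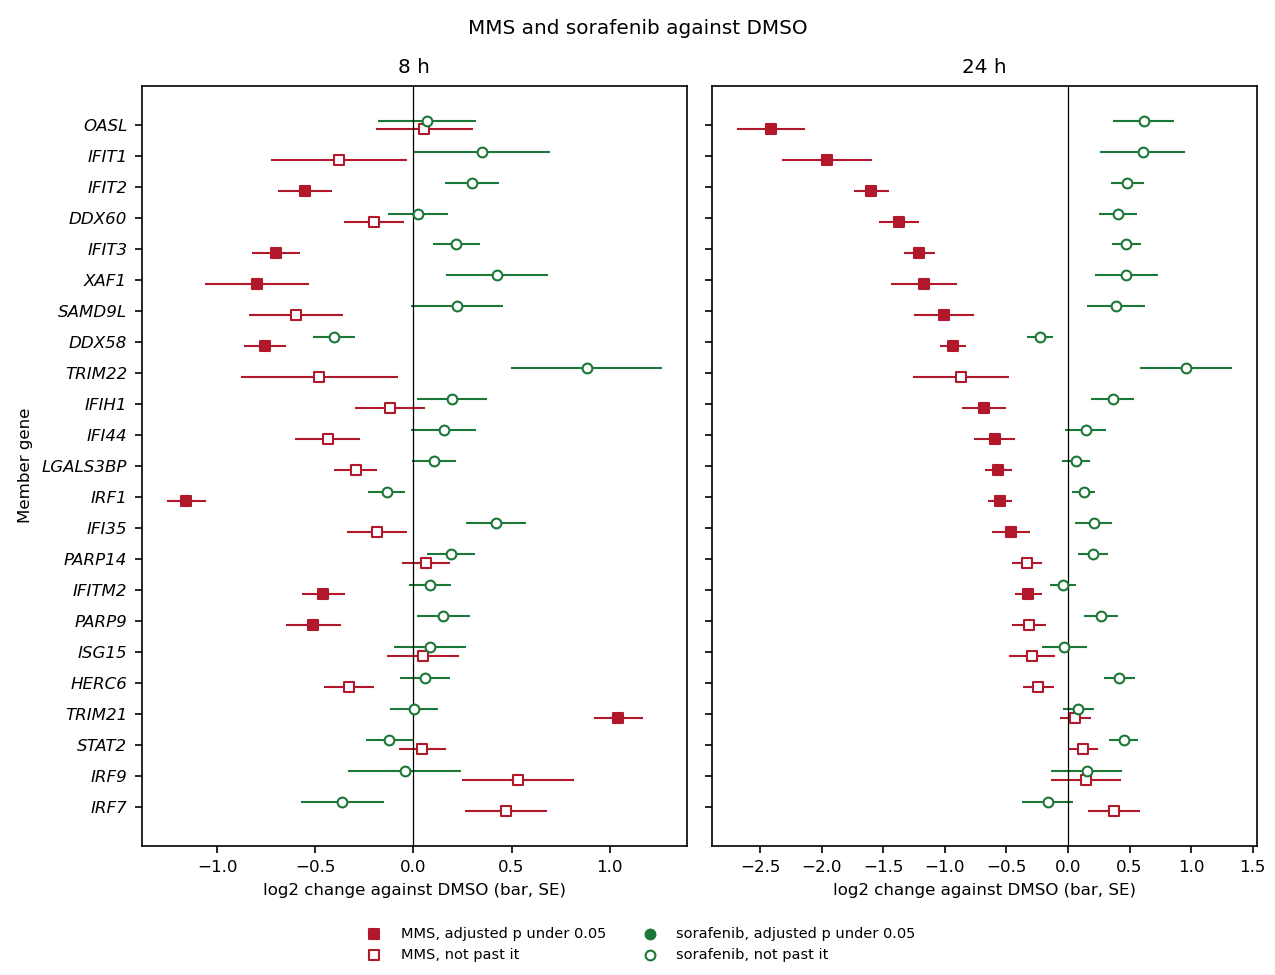
Log2 change against DMSO on the horizontal axis (bars, SE) for 23 members, MMS as squares and sorafenib as circles, filled where the adjusted p is under 0.05, with 8 h on the left and 24 h on the right and different horizontal scales. At 24 h the MMS values reach -2.41 for OASL, the sorafenib values lie mostly right of 0 and none is filled, and DDX58 is left of 0 for both agents.

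The 2 agents were then compared with each other, without DMSO in the difference. At 24 h 25 members were higher in sorafenib than in MMS and 0 lower, where 18.9% of all genes were higher and 18.2% lower, and the members' median was 0.48. The gaps were widest for OASL (3.03 ± 0.28), MX2 (2.85 ± 0.27), IFIT1 (2.56 ± 0.37), EPSTI1 (2.08 ± 0.41) and IFIT2 (2.08 ± 0.14). All 4 RNA sensors and helicases, 3 of 4 IFIT genes, both SAMD9 genes and 3 of 4 in the PARP group were among the 25, and neither transporter subunit nor any IFITM gene was. With each of the 4 libraries left out, 15 of the 25 held, HERC6, TRIM22, IFIH1, XAF1, SAMD9L and EPSTI1 among them. The 10 that did not were STAT2, IFI35, IFI44, DDX60L, OAS1, PARP9, PARP14, DTX3L, SAMD9 and UBE2L6, each lost without replicate 1 of MMS and some without others, with an adjusted p of up to 0.41 for STAT2. The count without that library was 15. With the replicate block 33 were higher and 2 lower, IRF7 (-0.52) and TAP2 (-0.37), against 27.4% and 26.4% of all genes, so the count of 0 lower did not hold in that fit.

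At 8 h 15 members were higher in sorafenib and 2 lower, where 14.4% of all genes were higher and 17% lower. IRF1 (1.02 ± 0.10), IFIT3 (0.92 ± 0.12), IFIT2 (0.85 ± 0.14), XAF1 (1.22 ± 0.27) and IFITM2 (0.54 ± 0.11) were higher and TRIM21 lower (-1.04 ± 0.12), and these 6 calls held with any library left out. The other member that was lower, IRF7 (-0.84 ± 0.21), lost its call without replicate 1 of sorafenib or replicate 2 of MMS (adjusted p up to 0.123). The other 10 calls, all higher in sorafenib, were lost with at least 1 library left out, with an adjusted p of up to 0.282 for HERC6. The count of 17 became 7 without replicate 1 of sorafenib and 10 without either MMS library. With the block 20 were higher and 3 lower, against 23.5% and 24.8% of all genes.

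Cells on sorafenib gave a view of MMS in groups whose means the comparison of MMS with DMSO does not use. The comparisons are not fully independent, since all 16 libraries shared 1 estimate of spread and same-numbered libraries deviated together across groups. Here the combination was set against sorafenib alone, with the 12 h difference in sorafenib exposure included. At 24 h 22 members fell and 0 rose, where 18.8% of all genes fell and 18% rose, and the median was -0.41. Of the 18 that MMS lowered in DMSO cells, 15 (83.3%) also fell here, and these were 68.2% of the 22. IFI35, OAS1 and UBE2L6 passed only without sorafenib, and DTX3L, HERC6, ISG20, PARP14, PARP9, SAMD9 and TRIM22 only with it, without a difference shown by the interaction test. Over the 46 members the 2 sets of log2 changes had Pearson r 0.926 and Spearman rho 0.927, as a description over genes that share libraries within each comparison. The overlap of calls and the correlation were not computed over all genes, so neither is shown to be particular to the members. OASL fell by 2.67, IFIT1 by 2.23, MX2 by 1.90, IFIT2 by 1.65, DDX60 by 1.52 and IFIT3 by 1.48 on the log2 scale. Those 6 calls and those of IRF1, DDX58, XAF1 and SAMD9L held with each library left out, and the other 12 did not, with an adjusted p of up to 0.371 for SAMD9. Without replicate 2 of the combination 11 passed. With the block 30 fell and 2 rose, IRF7 (0.45) and TAP2 (0.42), against 27.8% and 26.6% of all genes, so the count of 0 that rose did not hold there either.

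**Figure D4:**
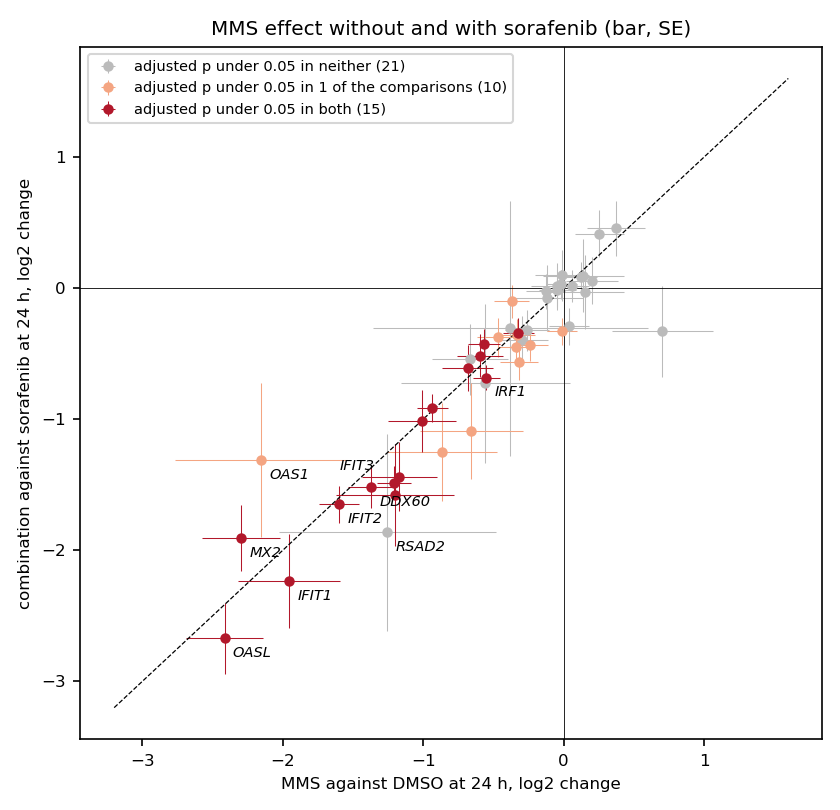
Each point is 1 tested member, with the log2 change of MMS against DMSO at 24 h on the horizontal axis and of the combination against sorafenib at 24 h on the vertical axis, bars showing SE and the dashed line equality. The 15 members called in both lie near the line, from OASL, MX2 and IFIT1 at the lower left up to IFITM2 near 0.

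At 8 h the same comparison gave 5 lower and 3 higher, where 11.6% of all genes were lower and 13% higher. IRF1 (-0.64 ± 0.10), DDX58 (-0.49 ± 0.11), IFIT2, IFIT3 and EPSTI1 fell, and TRIM21 (1.08 ± 0.12), DTX3L (0.49 ± 0.11) and IRF7 rose. Of the 7 members lower with MMS in DMSO cells 4 were lower here, 57.1% of those and 80% of the 5, and the log2 changes had r 0.658 over the 46 members. Neither the overlap nor r was computed over all genes. IRF1, DDX58, DTX3L and TRIM21 held with any library left out. With the block 9 fell and 6 rose, against 19.1% and 20.6% of all genes. IFIT2, IFIT3, EPSTI1 and IRF7 lost their calls without replicate 1 of sorafenib and some without others (adjusted p up to 0.263), and 4 passed without that library.

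Few members passed the test when sorafenib was added to MMS. Against MMS alone 1 member passed at 8 h and 0 at 24 h, where 0.624% and 0.122% of all genes passed. The 1 was XAF1, higher in the combination by 1.87 ± 0.27 (edgeR adjusted p = 0.00891), a call lost without either MMS library (up to 0.115), while 4 passed without replicate 2 of the combination. At 8 h the median of the members was 0.24, 13 had an unadjusted p under 0.05 (13.8% of all genes) and DESeq2 called 2 (3.45% of its genes). With the block 10 were higher at 8 h, against 4.12% of all genes. At 24 h 6 members had an unadjusted p under 0.05 (4.94% of all genes) and DESeq2 called 0 (0.632% of its genes). The blocked fit called STAT2 higher by 0.41 (edgeR adjusted p = 0.0328), where 0.774% of all genes were higher.

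The interaction of the 2 agents, that is whether MMS did the same with and without sorafenib, passed the test for 0 members and 0% of all genes at 8 h and at 24 h (0%). At an unadjusted p under 0.05 there were 2 members at 8 h, IRF1 and XAF1, and 0 at 24 h, against 3.62% and 2.18% of all genes. DESeq2 called 0 members and 0.00524% of its genes at either time. The 95% interval (normal approximation) of the interaction at 24 h was -0.61 to 0.06 for IFIT3, -0.44 to 0.33 for IFIT2 and -0.99 to 0.48 for OASL on the log2 scale. For XAF1 at 8 h, 1 of the 2 members with an unadjusted p under 0.05, it was 0.72 to 2.17. These intervals are not adjusted for the number of genes tested, and the XAF1 interaction did not pass the adjusted test.

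Against DMSO the combination at 24 h lowered 14 members and raised 1, where 17.2% of all genes fell and 16.2% rose. OASL (-2.06 ± 0.27), IFIT1, MX2, IFIT2, DDX58 (-1.14 ± 0.11) and DDX60 were among those lower, and STAT2 was higher by 0.53 ± 0.12 (edgeR adjusted p = 0.00442). With the block 21 fell and 2 rose, against 25.8% and 24.7% of all genes. STAT2, IRF1, DDX58, DDX60, OASL, MX2, IFIT2 and IFIT3 held with any library left out, and the other 7 were each lost without replicate 2 of the combination, with an adjusted p of up to 0.456 for OAS1. The count was 8 without that library and 9 without replicate 1 of the combination or replicate 2 of DMSO. At 8 h 5 rose and 2 fell, where 12.5% of all genes rose and 11.8% fell. TRIM21 (1.08 ± 0.12), XAF1 (1.07 ± 0.26), MX1 (0.85 ± 0.18), DTX3L (0.60 ± 0.11) and IFI35 (0.50 ± 0.15) rose and IRF1 and DDX58 fell. XAF1, MX1 and IFI35 lost their calls without replicate 1 of DMSO, and XAF1 and IFI35 also without others (adjusted p up to 0.281), and 4 passed without that DMSO library. With the block 7 rose and 5 fell, against 20.5% and 19% of all genes.

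Upstream of the set, most interferon genes had no reads. Of 21 interferon genes, 19 had 0 reads in all 16 libraries, among them IFNB1, the type I interferon that most cell types make first. For a single library, a count of 0 was taken to allow an expected count of up to 3 reads, or 0.109 to 0.185 CPM by library. This limit was set for each library alone and is not a bound over all 16 together. The other 2 were IFNK and IL29, with 2 and 11 reads over all libraries, and none could be tested.

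Of the receptor and kinase genes 10 could be tested, and their counts, like those of the lists after them, stand beside 15.2% of all genes higher and 16.3% lower with MMS at 24 h, and 14.5% higher and 12% lower at 8 h. At 24 h TYK2 (0.34 ± 0.08) and the receptor subunit IFNAR1 (0.37 ± 0.12) rose and the kinase JAK1 fell (-0.48 ± 0.09). IFNAR1 had 117 and 97.9 CPM in DMSO, 150 and 127 CPM in MMS, and its call was lost without replicate 1 of MMS or replicate 2 of DMSO (adjusted p up to 0.22). At 8 h 0 of the 10 rose and 3 fell: the interferon-gamma receptor subunit IFNGR2 (-0.72 ± 0.10), IL28RA (-0.88 ± 0.25) and IFNAR2 (-0.41 ± 0.13), the last 2 lost with any of the 4 libraries left out (adjusted p up to 0.13).

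Of 14 tested genes of nucleic acid sensing other than the members, 3 rose and 1 fell at 24 h of MMS, where 15.2% of all genes rose and 16.3% fell. MB21D1, which encodes the DNA sensor cGAS, rose by 0.76 ± 0.16 and IKBKE, a kinase that activates IRF3 and IRF7, fell by 1.26 on the log2 scale. IRF3 (0.41 ± 0.12) and TREX1 (0.55 ± 0.17) rose, with both calls lost without replicate 1 of MMS and without others (adjusted p up to 0.15). At 8 h 1 rose and 3 fell, where 14.5% and 12% of all genes did, with IKBKE at -1.37 ± 0.15 the largest change. TMEM173, which encodes STING, and MAVS, the adaptor of RIG-I, fell by 0.60 and 0.34, and MB21D1 rose by 0.63, each lost with at least 2 libraries left out in turn.

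Of 10 negative regulators of the pathway 5 fell and 0 rose at 8 h of MMS, where 12% of all genes fell and 14.5% rose. They included SOCS3 (-0.83 ± 0.14) and SOCS1 (-1.33 ± 0.31), the feedback inhibitors of Janus kinases, and IRF2 (-0.53 ± 0.11). At 24 h 2 fell, SOCS1 (-1.79 ± 0.31) and IRF2BP2 (-0.35 ± 0.11), where 16.3% of all genes fell. SOCS1 had 3.23 and 2.99 CPM in DMSO and 0.62 and 1.14 CPM in MMS at 24 h. The SOCS1 call at 8 h was lost without replicate 1 of MMS (adjusted p 0.08), and the IRF2BP2 call at 24 h without 3 of the 4 libraries.

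In antigen presentation, MMS lowered 7 of 15 genes at 24 h and raised 0, where 16.3% of all genes fell and 15.2% rose. The peptidases ERAP1 (edgeR adjusted p = 5.03e-05) and ERAP2 (-0.88 ± 0.13), the class I transactivator NLRC5 (-0.91 ± 0.13) and the immunoproteasome subunit PSMB9 (-0.94 ± 0.17) led the list, and all 4 held with any library left out. ERAP1 had 124 and 120 CPM in DMSO and 57.4 and 64.3 CPM in MMS. TAP1 and TAP2, members of the main set and subunits of the peptide transporter, did not pass. At 8 h NLRC5 and ERAP2 fell, 2 of 15, where 12% of all genes did.

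Among 40 other interferon-induced genes, 11 fell and 3 rose with MMS at 24 h, where 16.3% of all genes fell and 15.2% rose. IDO1, the tryptophan-degrading enzyme, had 1.90 and 3.33 CPM in DMSO, 0.17 and 0.41 CPM in MMS and 3.71 and 2.94 CPM in sorafenib. The guanylate-binding proteins GBP4 (-2.68 ± 0.29) and GBP2 (-2.63 ± 0.31) and IDO1 (-3.09 ± 0.39) fell, and the nucleotidase NT5C3 rose (0.71 ± 0.09). At 8 h 5 rose and 5 fell, where 14.5% and 12% of all genes did, with the antiviral zinc-finger gene ZC3HAV1 (1.00 ± 0.10), NT5C3 (0.77 ± 0.09) and the tryptophanyl-tRNA synthetase gene WARS (0.69 ± 0.09) higher and GBP3 (-0.87 ± 0.11) lower. Sorafenib against DMSO passed edgeR's test for 0 genes of any of these 5 lists at either time, with 7 at 8 h and 9 at 24 h at an unadjusted p under 0.05, beside 7.6% and 9.03% of all genes.

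Beside the 24 h results, the summed level of 10 immune cell markers was 126 to 178 CPM in DMSO, 96.5 to 121 CPM in MMS, 105 to 137 CPM in sorafenib and 93.0 to 118 CPM in the combination. Most of it was CD68, which tumour lines express too. Without CD68 the sum was 6.19 to 14.8 CPM in DMSO, 1.36 to 1.99 CPM in MMS, 5.53 to 9.25 CPM in sorafenib and 1.30 to 1.42 CPM in the combination, and CD14 made up most of it. CD14 fell with MMS at 24 h by 2.73 on the log2 scale (edgeR adjusted p = 0.00988, and 0.091 at most with 1 library left out, lost without replicate 1 of MMS or replicate 2 of DMSO). MS4A1 and CLEC4C were at 0 and CD3E, ITGAM and LILRA4 had at most 2 reads per library. The part of these transcripts in the members' changes was not tested.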

How the data were processed

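The submitters' processing notes name CASAVA 1.8.2, TopHat2 2.0.8b, HTSeq and the build hg19. The authors deposited raw counts of reads per gene, 1 file per library. The annotation, strand setting and counting mode are not given in the sources used here. The 5 counter rows of each file were left out of totals and tests. They held 6.88 to 7.94% of a library as reads in no gene, 1.03 to 1.18% as ambiguous reads and 29.5 to 31.5% as multiply aligned reads. These are shares of the sum over all rows of a file, gene and counter rows together.

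Counts of all 16 libraries were fitted in R 4.3.3 with edgeR 4.0.16 (limma 3.58.1): TMM factors, 1 coefficient per group, the filterByExpr filter, which passed 13948 genes, and quasi-likelihood tests with 8 residual degrees of freedom. The 18 comparisons were each adjusted by Benjamini-Hochberg over all genes, with a threshold of 0.05. The script was run on simulated counts drawn without the deviations that same-numbered libraries share. That run therefore does not show how the tests perform on these libraries. A group's libraries are called independent experiments in the series text. The p-values rest on the spread between libraries within groups, estimated over all 8 groups together. In the fit with the block, the difference shared by same-numbered libraries is taken out of that spread. No 2 libraries held identical counts.

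Replicate numbers stand for the 2 title spellings (MDA231 and MDAMB231). Deviations from group means correlated at 0.489 to 0.707 (median 0.638) in all 28 pairs of groups, so a fit with the title spelling as block (7 residual degrees of freedom) is given beside the counts of members. edgeR's coefficient of biological variation fell from 0.136 to 0.0632 on adding it.

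Other settings tried were DESeq2 1.42.0, RLE factors in edgeR, no expression filter, a filter at a mean count of 50, the block, a fit on the compared libraries alone, and leaving out each library in turn. In the last, the lone library of a group takes its variance from the other groups, and calls over all genes were fewer in most of these fits.

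Per-library values are given for members with a mean count of at least 50 that passed the test in a comparison of MMS, sorafenib and DMSO, at most 20 by smallest p, and always for IRF1, IRF7, IRF9, STAT2 and ISG15. Of other lists up to 4 genes with the smallest adjusted p are named. Members outside this rule that are given with values per library, such as MX2 and DTX3L, were chosen after their values were seen. The members and lists were chosen with earlier results of these data known. Promoter sequences and neighbours came from RefSeq tables of GRCh38.p14, matched by symbol for 39 of 47 members (DDX58 as RIGI), and no coordinates were converted.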

Additional observations from a re-analysis of the deposited data

Results flagged for a closer look

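The effect of MMS differed between 24 h and 8 h, by a test of the difference itself in edgeR, for 6 members. The difference of the log2 changes was -2.47 for OASL, -1.69 for MX2, -1.17 for DDX60, -1.05 for IFIT2, -0.98 for TRIM21 and 0.61 for IRF1. OASL and DDX60 overlapped DMSO at 8 h and lay below it at 24 h, IFIT2 lay below it at both times, TRIM21 lay above it at 8 h, and IRF1 was lower at 8 h.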

How the results depend on the processing

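The number of members past the threshold moved by over 1.5 times in these cases. With the replicate block it was 20 for MMS, 3 for sorafenib and 12 for the combination against DMSO at 8 h, and 28, 9 and 23 at 24 h. In the blocked fit it was also 10 and 1 for the combination against MMS at 8 h and 24 h, 15 for the combination against sorafenib at 8 h, 14 for sorafenib over both times, 11 for the MMS effect between times and 8 for DMSO between times. The block changed no direction among the values given. DESeq2 called 1 member for sorafenib at 8 h, 3 at 24 h and 5 over both times, 2 for the combination against MMS at 8 h and 2 for DMSO between times. For sorafenib over both times it called 323 of 13231 genes higher and 362 lower. Fitted on the compared libraries only, MMS at 24 h had 11, where 1129 of 13242 genes were higher and 1585 lower. For sorafenib over both times RLE factors gave 1 and no filter gave 4. Over all genes RLE factors gave 182 higher and 255 lower of 13948, and no filter 219 and 302 of 19083. The cause of these shifts was not tested.

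With 1 library left out, the count ran from 5 to 9 for MMS at 8 h and 9 to 16 at 24 h, 4 to 8 and 8 to 14 for the combination against DMSO, 7 to 13 and 15 to 23 for sorafenib against MMS, 4 to 8 and 11 to 17 for the combination against sorafenib, 0 to 4 and 0 to 0 for the combination against MMS, 0 to 2 for sorafenib over both times, and 4 to 6 for the MMS effect between times. Calls over all genes were also fewer in most of these fits, so the ranges are not shown to be particular to the members. Some values that had not passed the test changed sign in these fits, for MMS at 24 h: STAT2 from -0.018 to 0.29, ISG15 from -0.57 to 0.067, IFIT5 from -0.15 to 0.15, DDX60L from -0.29 to 0.064, MX1 from -0.016 to 0.43 and OAS3 from -0.17 to 0.11. Depth limits OAS1, MX2, EPSTI1, RSAD2, USP18, IFI44L and CMPK2, which had few reads. With 2 libraries per group the tests have 8 residual degrees of freedom.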

Other observations

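Several members differed by replicate in every group. With replicate 2 set against replicate 1, 10 members were higher in all 8 groups (IRF9, IFI27, OAS1, OAS2, IFITM1, PARP12, SAMD9L, RSAD2, TAP1 and TAP2), 2 were lower in all 8 (IFITM3 and HERC5) and 34 were mixed. IFI27, an early marker of type I interferon exposure, had 3.79 and 19.03 CPM in DMSO at 24 h and 4.14 and 13.2 CPM in MMS, and the median ratio over the 8 groups was 3.20. IFITM1, a plasma membrane protein that blocks viral entry, had a median ratio of 2.08, and RSAD2, which encodes viperin, 2.02. IFITM3 had a median ratio of 0.878 and HERC5 of 0.877. These ratios were not tested, and the share of all genes with the same direction in all 8 groups was not counted. Same-numbered libraries deviated together over 13948 genes, so these patterns are not shown to be particular to the members.

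Members that lie next to each other in the genome did not always share a call. Of the 47, 24 stood in 13 neighbouring pairs by RefSeq order. With MMS at 24 h both members of IFIT2 and IFIT3 fell, while 1 of each fell for IFIT1 and IFIT5, MX2 and MX1, DDX60 and DDX60L, SAMD9L and SAMD9, IFI44 and IFI44L, IFITM2 and IFITM1, and OAS1 and OAS3. Differences within the pairs were not tested.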
